A study of Mus musculus with 9 samples.

Results

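The 10 genes followed here belong to the BCL2 family, which decides between survival and death at the mitochondrion. Their expression was read from RNA-sequencing values of mouse myeloid-derived suppressor cells (MDSCs), immature myeloid cells that expand in tumour-bearing hosts and restrain immune responses. They were taken by symbol from the 23284 genes in each sample, as a list chosen with earlier results of these data known. The list held the pro-survival members Bcl2, Bcl2l1, Mcl1, Bcl2a1a, Bcl2a1b and Bcl2a1d, the pore-forming members Bax and Bak1, and the BH3-only members Bcl2l11 and Bid. All 10 were measured in all 9 samples and passed the filter on low values in both comparisons. The samples formed 3 groups of 3 from spleens of mice carrying a spindle cell tumour (SCT), a line grown out of a chemically treated p16 knockout mouse. PMN-MDSCs, the neutrophil-like subset, and WT Mo-MDSCs, the monocyte-like subset, came from C57BL/6J mice labelled p16/p21 wild-type. The third group, DKO Mo-MDSCs, came from C57BL/6 mice labelled p16/p21 double knockout, in which both CDK inhibitors are missing from every cell of the body and not from the myeloid cells alone. Magnetic isolation separated Ly6G+ PMN-MDSCs from Ly6G-Gr-1+ Mo-MDSCs. The labels state an age of 3 weeks, whereas in the study's methods 3 weeks is the time between tumour cell injection and isolation. PMN-MDSCs of DKO mice were not analysed here. Nothing in the labels says that the replicates came from separate mice, so the p-values measure only the spread between these samples.

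The BCL2 family acts on the outer mitochondrial membrane. BAX and BAK, the products of Bax and Bak1, form pores there that release cytochrome c and start the caspase cascade. BH3-only proteins such as BIM (Bcl2l11) and BID (Bid) switch the pore formers on, and the pro-survival proteins BCL2, BCL-XL (Bcl2l1), MCL1 and A1 (the Bcl2a1 genes) hold both kinds in check by binding their BH3 segment in a surface groove. MCL1 and A1 are short-lived proteins known for keeping neutrophils and other myeloid cells alive, and BCL2 supports lymphocytes. Drugs that mimic the BH3 segment, among them ABT-263, which the study used as a senolytic agent, occupy the groove of BCL2 and BCL-XL but bind MCL1 poorly.

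The BH3 core is the feature that most of these proteins share and through which they bind each other, so its coding DNA is shown for each member in which it was found. The search looked in the longest coding transcript of each gene (GENCODE M21, GRCm38, the mm10 build) for a leucine followed after 3 residues by a glycine and an aspartate. It matched once in 7 of the 10 members, within 1 coding exon each, and in none of the 3 Bcl2a1 genes. No match says only that this pattern is not in those coding sequences. Each stretch has 30 bases, is written 5′ to 3′ along the coding strand and has the leucine, glycine and aspartate codons in capitals.
Bcl2 (chr1:106712578-106712607, minus strand): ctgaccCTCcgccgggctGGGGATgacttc
Bcl2l1 (chr2:152829700-152829729, minus strand): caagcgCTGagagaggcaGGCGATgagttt
Mcl1 (chr3:95659430-95659459, plus strand): gagaccCTGcggcgcgtgGGCGACggcgtg
Bax (chr7:45466000-45466029, minus strand): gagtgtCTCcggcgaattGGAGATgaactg
Bak1 (chr17:27022534-27022563, minus strand): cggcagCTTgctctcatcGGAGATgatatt
Bcl2l11 (chr2:128147144-128147173, plus strand): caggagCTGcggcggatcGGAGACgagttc
Bid (chr6:120897292-120897321, minus strand): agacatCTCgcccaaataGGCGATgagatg

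The 3 Bcl2a1 genes, which encode nearly the same A1 protein, lie together on chromosome 9, and their sequences are shown because they limit what each value means. Bcl2a1d is at chr9:88723285-88731914 on the minus strand, Bcl2a1a at chr9:88956900-88962419 and Bcl2a1b at chr9:89199209-89207827, both on the plus strand. Each has 516 coding bases, of which 12 differ in at least 1 copy. Coding identity was 97.9% between Bcl2a1a and Bcl2a1b, 98.6% between Bcl2a1a and Bcl2a1d and 98.8% between Bcl2a1b and Bcl2a1d. The first 75 coding bases, as long as 1 sequencing read, hold 6 of the 12 differing positions, which are in capitals.
Bcl2a1a (chr9:88957051-88957125, plus strand): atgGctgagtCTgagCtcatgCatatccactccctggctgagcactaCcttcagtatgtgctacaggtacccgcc
Bcl2a1b (chr9:89199360-89199434, plus strand): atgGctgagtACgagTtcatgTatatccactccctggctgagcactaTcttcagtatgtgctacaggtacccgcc
Bcl2a1d (chr9:88731645-88731719, minus strand): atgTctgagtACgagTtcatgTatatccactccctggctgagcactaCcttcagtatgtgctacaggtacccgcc
Elsewhere the copies run for up to 217 coding bases without a difference. Of the 75-base windows of each transcript, 53.8% for Bcl2a1a, 43.5% for Bcl2a1b and 67.6% for Bcl2a1d occur unchanged in another of the 3. Reads from those windows cannot be told apart, so the single values of these genes are uncertain and their sum is given beside them.

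The values are FPKM, which scale fragments to transcript length, so levels can be compared between genes. How the samples were scaled to each other is not given in the sources used here. Relative depth, read from low genes and dependent on that scaling, ranged from 0.809 to 1.31 of that of WT Mo-MDSC replicate 1. In each sample 11299 to 11418 genes reached 1 FPKM. FPKM summed over all genes was 745400, 711700 and 916600 in PMN-MDSCs. It was 569400, 550000 and 618200 in WT and 529000, 534400 and 494300 in DKO Mo-MDSCs. Of the deleted genes, Cdkn2a (p16) was at 0.718, 0.772 and 0.432 FPKM in WT and 0.258, 0.586 and 0.00 in DKO Mo-MDSCs, and Cdkn1a (p21) at 8.18, 6.46 and 8.04 in WT and 5.55, 8.52 and 6.00 in DKO Mo-MDSCs. Both genes overlapped between the genotypes, and a gene-level value does not show which exons its reads came from, so these values do not check the label and DKO stands for the libraries labelled p16/p21-DKO. The subsets differed in their own markers, since all 6 PMN-MDSC markers measured fell and 5 of 7 Mo-MDSC markers rose from PMN-MDSCs to WT Mo-MDSCs, while Itgam fell and Csf1r did not pass the test. Ly6g, the gene of the antigen that separated the subsets, was also listed as a PMN-MDSC marker but had no values under that symbol. Markers of other cells were present in every sample. The B cell markers summed to 1530 to 1758 FPKM in PMN-MDSCs, 1115 to 1265 in WT and 1188 to 1512 in DKO Mo-MDSCs, and 6 of 6 measured were above 0 in every group. The macrophage markers (6 of 6 above 0) summed to 6873 to 7696, 4316 to 5173 and 5482 to 7835 FPKM. The erythroid markers (5 of 5 above 0) summed to 1295 to 2923, 1233 to 2821 and 1499 to 2496 FPKM, highest in replicate 2 of each group, and the T cell markers (7 of 7 above 0) to 75 to 92.8, 51.8 to 62.8 and 52.2 to 69.6 FPKM. In such bulk samples fewer cells of a type and less RNA per cell cannot be told apart.

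Mcl1 stood far above every other member in all 3 groups, and Bcl2 was at or near the bottom. Mean levels in PMN-MDSCs ran from Mcl1 (547 FPKM) through Bid (67.5), Bax (63.0), Bcl2a1b (42.5), Bak1 (40.7), Bcl2l1 (21.1), Bcl2a1a (16.5) and Bcl2l11 (13.9) to Bcl2a1d (7.19) and Bcl2 (6.94). In that order Bid and Bax, Bcl2a1b and Bak1, Bcl2l1 and Bcl2a1a, and Bcl2a1d and Bcl2 overlapped between their samples. In WT Mo-MDSCs the order was Mcl1 (259 FPKM), Bax (77.7), Bak1 (53.9), Bid (36.9), Bcl2a1b (33.0), Bcl2l11 (15.3), Bcl2l1 (14.9), Bcl2a1a (10.8), Bcl2 (6.24) and Bcl2a1d (5.64). There Bid and Bcl2a1b, Bcl2l11 and Bcl2l1, and Bcl2 and Bcl2a1d overlapped. DKO Mo-MDSCs had the same order, with overlaps along the run from Bcl2l11 through Bcl2l1 and Bcl2a1a to Bcl2. Both pore formers ranked above Bid in the Mo-MDSC groups and not in PMN-MDSCs.

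**Figure D1:**
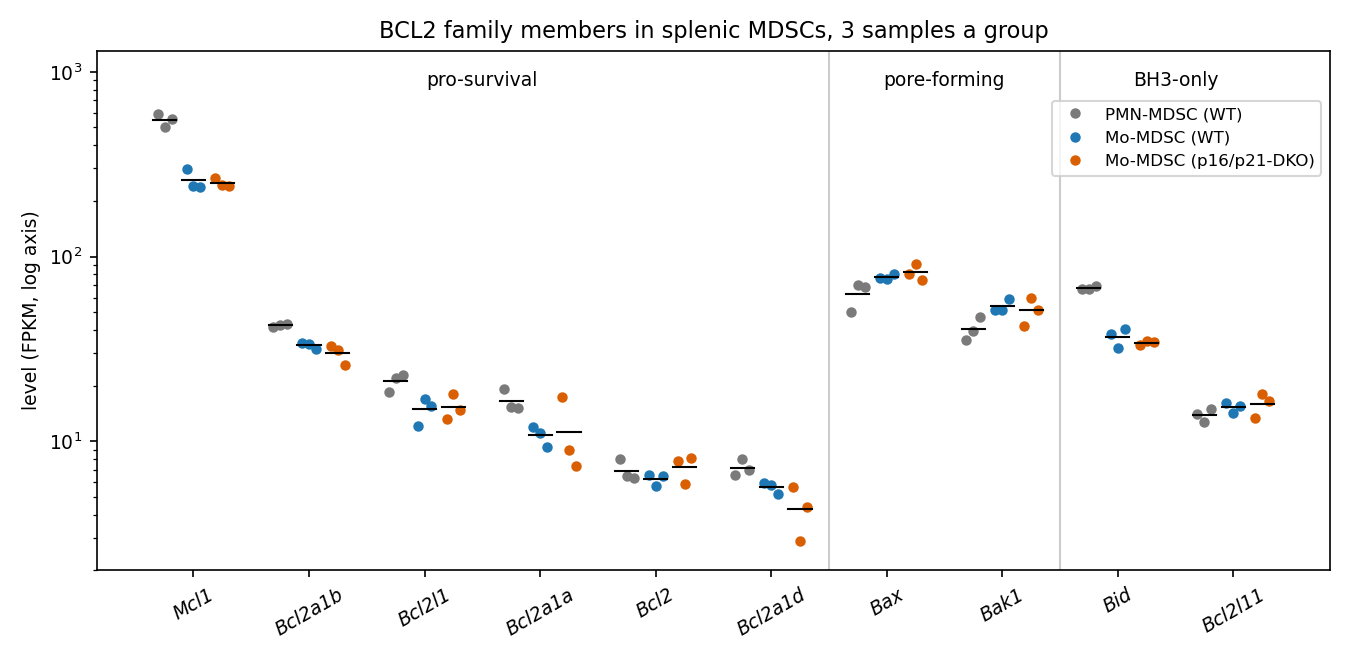
Level of each of the 10 members in FPKM on a log axis, with 1 point per sample, 3 samples a group, and a black line at the group mean. Mcl1 lies at 238.5 to 589 FPKM, above all other members, and Bcl2 at 5.69 to 8.16 FPKM with the 3 groups overlapping.

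The first comparison set WT Mo-MDSCs against PMN-MDSCs, that is, the monocyte-like against the neutrophil-like subset of the same genotype. Mcl1, Bid, Bcl2l1 and the 3 Bcl2a1 genes fell and Bak1 rose. Of the 10 members 6 were called lower and 1 higher by limma at an adjusted p below 0.05, where 20.6% of the 11491 genes tested were called lower and 18.5% higher. The groups did not overlap for 8 members, beside 52.5% of all genes tested. By role, 5 of 6 pro-survival members were called, all lower, and so were 1 of 2 BH3-only members (lower) and 1 of 2 pore formers (higher). The median log2 difference was -0.35 over the members and 0.01 over all genes tested. In its search for chemokine receptors the study took genes higher in Mo-MDSCs by a fold above 2 with a p below 0.05. Whether that p was adjusted is not stated, and no member met these thresholds with the unadjusted p of limma. With the same size of fold allowed in either direction, Mcl1 alone passed, as lower. The summed markers of B cells, T cells and macrophages were also lower in WT Mo-MDSCs, without overlap with PMN-MDSCs, and their part in the members' differences was not tested.

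Mcl1, which binds BIM, BID and BAK and turns over within hours, was at 589, 499.5 and 552.5 FPKM in PMN-MDSC replicates 1 to 3. In WT Mo-MDSCs it was at 297.5, 241 and 238.5 FPKM. Every Mo-MDSC sample was thus below every PMN-MDSC sample. The fitted level was 0.472-fold (95% interval 0.390 to 0.571), a log2 difference of -1.08 ± 0.12 (SE) with an adjusted p of 0.000484 by limma. With quantile normalization the log2 difference was -0.62, still past the threshold. The exact permutation p was 0.1, the smallest that 3 samples against 3 allow when replicate numbers are ignored. It was the same for each of the 8 members whose groups did not overlap.

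The A1 genes were lower in WT Mo-MDSCs by less than Mcl1. Bcl2a1b, the most abundant copy, was at 41.6, 42.6 and 43.3 FPKM in PMN-MDSCs and at 33.8, 33.5 and 31.6 FPKM in WT Mo-MDSCs, replicates in order. These samples lay close together within each group and did not overlap between them, and the fold was 0.776 (95% interval 0.696 to 0.866, adjusted p = 0.00496 by limma). Bcl2a1a was at 19.2, 15.3 and 15.1 FPKM in PMN-MDSCs and at 11.9, 11.1 and 9.26 FPKM in WT Mo-MDSCs. Its fold was 0.655 (adjusted p = 0.0109). Bcl2a1d went from 6.59, 8.00 and 6.99 FPKM to 5.96, 5.81 and 5.16 FPKM, with an adjusted p of 0.0463 that was lost in 10 of 16 alternatives. The sum of the 3 copies depends less on how shared reads were divided among them, provided that each was counted once, which is not known. The sum was 67.4, 65.9 and 65.4 FPKM in PMN-MDSCs and 51.7, 50.5 and 46.1 FPKM in WT Mo-MDSCs. That is a fold of 0.746 (95% interval 0.662 to 0.840), with no overlap between the groups. With quantile normalization the log2 difference was -0.21 for Bcl2a1b (adjusted p = 0.0434 by limma) and -0.21 for the sum (adjusted p = 0.0762).

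Bcl2l1 encodes BCL-XL, which also keeps maturing red cell precursors and platelets alive. It was at 18.5, 21.9 and 22.8 FPKM in PMN-MDSCs and at 12.1, 17.0 and 15.6 FPKM in WT Mo-MDSCs, all of the latter lower. The fold was 0.704 (95% interval 0.556 to 0.891, adjusted p = 0.0296 by limma), and the call was lost in 5 of 16 alternatives. Within WT Mo-MDSCs, replicate 1 was lowest and replicate 2 highest for Bcl2l1 and for the erythroid marker sum, which was 1233, 2821 and 1665 FPKM, and both put the 3 DKO replicates in 1 order as well. In PMN-MDSCs replicate 3 was highest for Bcl2l1 and replicate 2 for the erythroid sum (1295, 2923 and 1775 FPKM). The part of erythroid cells in the Bcl2l1 level was not tested.

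Bcl2 itself, the founding member of the family, did not pass the test between the subsets. It was at 8.00, 6.47 and 6.36 FPKM in PMN-MDSCs and at 6.55, 5.69 and 6.47 FPKM in WT Mo-MDSCs, which overlapped. The log2 difference was -0.15 with a 95% interval from -0.43 to 0.14 (adjusted p = 0.373 by limma), which is 0.740- to 1.10-fold.

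With Mcl1 lower, the make-up of the pro-survival group differed between the subsets. The 6 pro-survival members summed to 683, 594 and 647 FPKM in PMN-MDSCs and to 368, 314.5 and 307 FPKM in WT Mo-MDSCs, a fold of 0.513. Mcl1 held 85.2% ± 1.08 (SD, n = 3) of that sum in PMN-MDSCs and 78.5% ± 2.15 in WT Mo-MDSCs. The share of the 3 A1 genes was 10.4% ± 0.656 in PMN-MDSCs and 15.0% ± 0.998 in WT Mo-MDSCs, and that of Bcl2 1.08% ± 0.0937 and 1.90% ± 0.183. None of these 3 shares overlapped between the subsets (exact permutation p = 0.1 each, the smallest possible when replicate numbers are ignored). The share of Bcl2l1, 3.31% ± 0.526 and 4.59% ± 1.14, did overlap (exact permutation p = 0.3). The shares add up to 100%, so they do not move independently of each other, and they describe RNA and not protein.

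**Figure D2:**
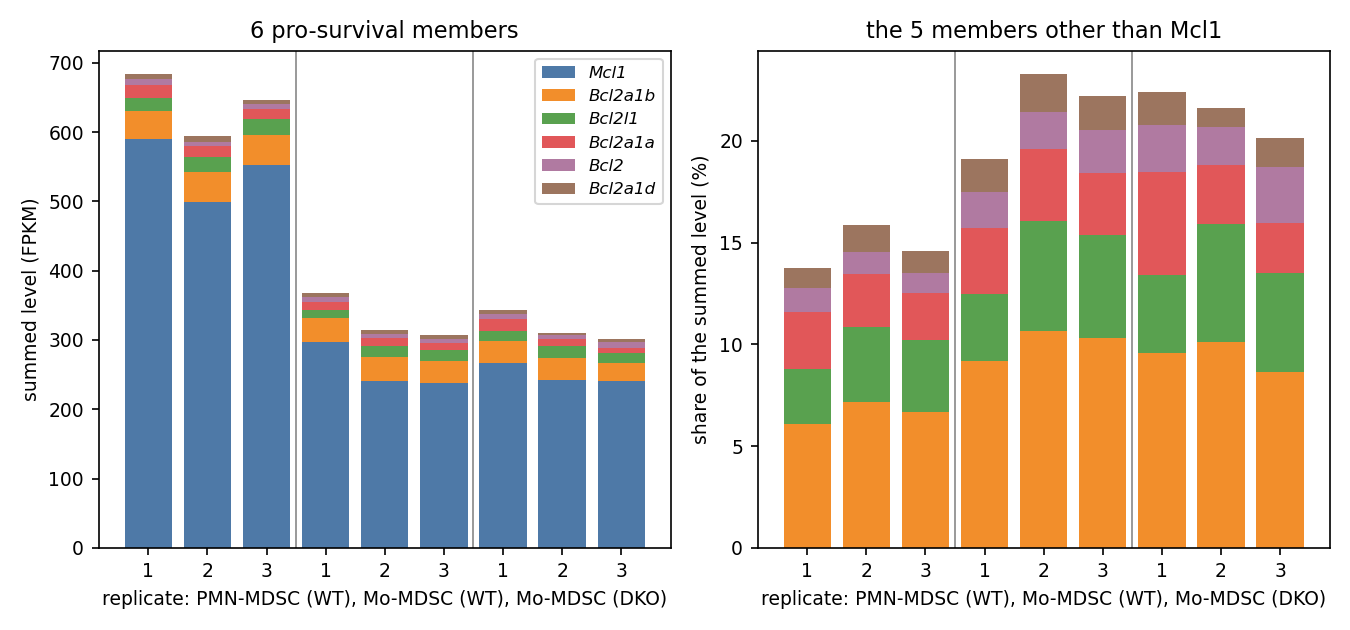
Left, summed level of the 6 pro-survival members in FPKM, 1 bar per sample, and right, the share of that sum in percent held by the members other than Mcl1, with replicates 1 to 3 of PMN-MDSCs (WT), Mo-MDSCs (WT) and Mo-MDSCs (DKO) from left to right. The sums lie at 594 to 683 FPKM in PMN-MDSCs and at 301 to 368 FPKM in both Mo-MDSC groups, and Mcl1 holds most of each bar.

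Of the pore formers, Bak1 rose and Bax did not pass the test. Bak1 was at 35.5, 39.3 and 47.2 FPKM in PMN-MDSCs and at 51.2, 51.6 and 58.8 FPKM in WT Mo-MDSCs, higher in every sample of the latter. The fold was 1.33 (95% interval 1.09 to 1.62, adjusted p = 0.0313 by limma), and the call was lost in 7 of 16 alternatives. Bax was at 50.4, 70.4 and 68.2 FPKM in PMN-MDSCs and at 76.9, 76.0 and 80.3 FPKM in WT Mo-MDSCs, also without overlap. Its fold of 1.25 (95% interval 1.00 to 1.55) did not pass the test (adjusted p = 0.0980), but did with the replicate number as a block (adjusted p = 0.0337) and with quantile normalization (0.0109). PMN-MDSC replicate 1 was the lowest sample for Bax, and replicate 1 of each group gave a log2 difference of 0.61 where replicates 2 and 3 gave 0.17. The summed pro-survival level was 7.96, 5.41 and 5.61 times the summed level of Bax and Bak1 in PMN-MDSCs, and 2.87, 2.46 and 2.21 times that level in WT Mo-MDSCs. These are ratios of RNA values as deposited. They do not give the balance of the proteins and were not computed with other scalings.

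The BH3-only members differed from each other. Bid, whose protein links death receptors to mitochondria once caspase-8 has cut it, was at 66.7, 66.4 and 69.4 FPKM in PMN-MDSCs and at 38.0, 32.0 and 40.6 FPKM in WT Mo-MDSCs. Each WT Mo-MDSC sample was far below each PMN-MDSC sample, with a fold of 0.544 (95% interval 0.463 to 0.640, adjusted p = 0.000609 by limma). Bcl2l11, which encodes BIM, was at 13.99, 12.7 and 15.0 FPKM in PMN-MDSCs and at 16.2, 14.3 and 15.5 FPKM in WT Mo-MDSCs. These groups overlapped, and the fold of 1.10 (95% interval 0.947 to 1.29) did not pass the test (adjusted p = 0.268).

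**Figure D3:**
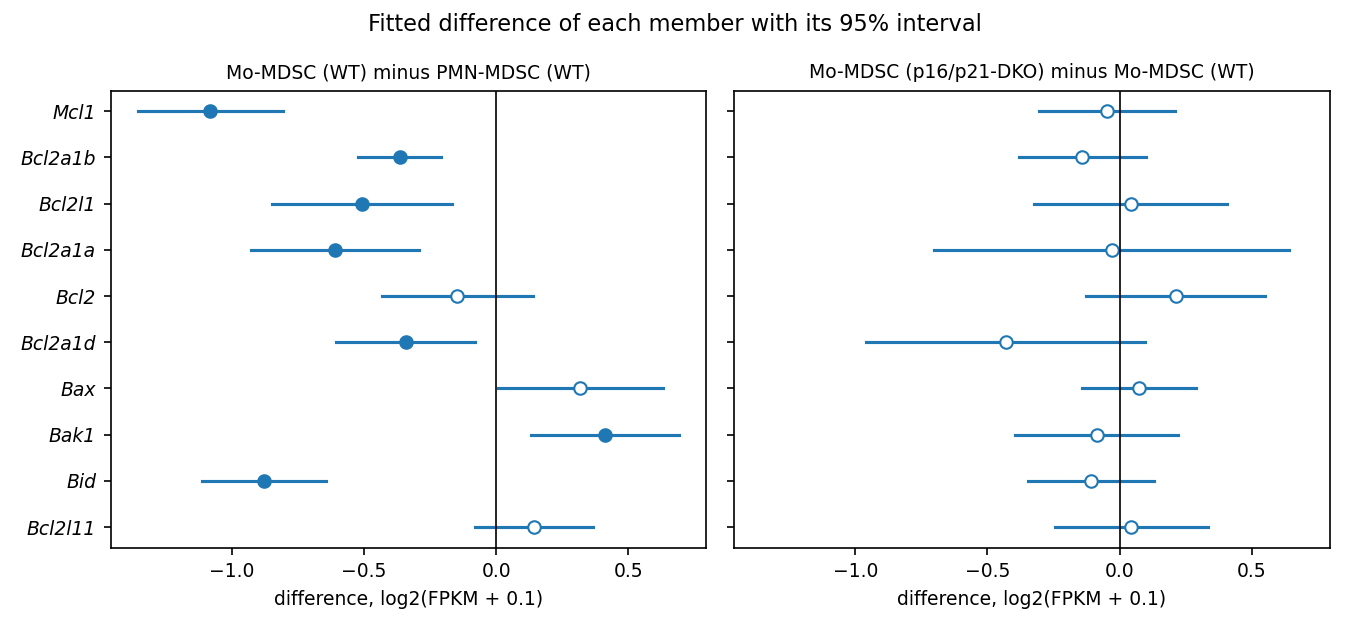
Fitted difference of each member on the log2(FPKM + 0.1) scale, with its 95% interval as a line, for Mo-MDSC (WT) minus PMN-MDSC (WT) on the left and Mo-MDSC (p16/p21-DKO) minus Mo-MDSC (WT) on the right; filled points have an adjusted p below 0.05. The left panel has 7 filled points, from -1.08 for Mcl1 to 0.41 for Bak1, and the right panel has none.

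The number of calls depended on the samples. Of 7 members called, 4 were called without PMN-MDSC replicate 2, without WT Mo-MDSC replicate 1 or without WT Mo-MDSC replicate 3. Mcl1, Bid and Bcl2a1b were called in all 16 alternatives that kept the threshold on the adjusted p.

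The second comparison set DKO against WT Mo-MDSCs and addressed whether loss of p16 and p21 went with a different setting of the survival genes in the monocyte-like subset. It shares the 3 WT Mo-MDSC samples with the first. For these genotypes the study reported no difference in Bcl2 expression in Mo-MDSCs, and similar proportions of apoptotic Mo-MDSCs in both spleen and tumour. The summed Mo-MDSC markers, at 2182 to 2570 FPKM in WT and 1729 to 1976 FPKM in DKO, and the summed macrophage markers did not overlap between these groups either. Of the Mo-MDSC markers, Ly6c2, Ccr2, Cx3cr1 and Ms4a6c were lower in DKO without overlap, while Csf1r, F13a1 and Itgam overlapped, and none was called. Ccr2 and Cx3cr1 are among the genes that the study reported as lower in DKO Mo-MDSCs. Of the macrophage markers, Hmox1 (called higher in DKO) and Spic did not overlap, while C1qa, C1qb, C1qc and Vcam1 did. The part of these markers in the values was not tested. No member was called by limma (0.253% of the 11451 genes tested were), none had an unadjusted p below 0.05 (15.0% of all genes had), and none had groups that did not overlap (20.8% of all genes had). The log2 differences ran from -0.43 for Bcl2a1d to 0.21 for Bcl2, with a median of -0.04 over the members and -0.02 over all genes tested. In its search for chemokine receptors the study took genes with a fold below 0.75 and a p below 0.05. With the unadjusted p of limma, none of the 10 met that or the inverse fold, which was added here. A p that misses the threshold does not show equal levels, and the intervals below state how large a difference these samples allow.

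Bcl2 was at 7.87, 5.88 and 8.16 FPKM in DKO Mo-MDSCs, replicates 1 to 3, beside 6.55, 5.69 and 6.47 FPKM in WT Mo-MDSCs. DKO replicates 1 and 3 were above all WT samples, and replicate 2 was within their range. The fold was 1.16 with a 95% interval from 0.916 to 1.46 (adjusted p = 0.520 by limma, exact permutation p = 0.3). The B cell marker sum was 1387, 1188 and 1512 FPKM in DKO and 1265, 1115 and 1126 FPKM in WT Mo-MDSCs, and in both groups it ranked the replicates as Bcl2 did. The T cell sum, at 69.6, 52.2 and 67.8 FPKM in DKO and 62.8, 52.1 and 51.8 FPKM in WT, was also lowest in DKO replicate 2 and highest in WT replicate 1. In PMN-MDSCs, where the B cell sum was 1758, 1530 and 1676 FPKM, replicate 1 was highest for it and for Bcl2, and the other two changed places. Of 70 pairs of a member and a marker list, 9 had the replicates in the same order in 2 of 3 groups and 0 in all 3. The pairs of Bcl2 with B cells and Bcl2l1 with erythroid cells are 2 of these 9, shown after their values were seen. The others were Mcl1 and Bcl2a1d with the T cell markers, Bak1 with those of dividing cells, and Bax and Bid each with the Mo-MDSC and the PMN-MDSC markers. Other lists were as close or closer by Pearson's r of log2 deviations from the group means over the 9 samples. For Bcl2 it was 0.890 with the T cell and 0.844 with the B cell markers. For Bcl2l1 it was 0.826 with the erythroid markers, 0.856 with those of dividing cells and -0.930 with the T cell markers. Among the other members the largest in size were -0.896 for Bcl2a1a with dividing cells and 0.884 for Bcl2a1b with the macrophage markers. Same-numbered samples deviated alike on average across the groups. The orders in the 3 groups, and the deviations of the 9 samples, are therefore not independent repeats. The part of other cells in any member's level was not tested.

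**Figure D4:**
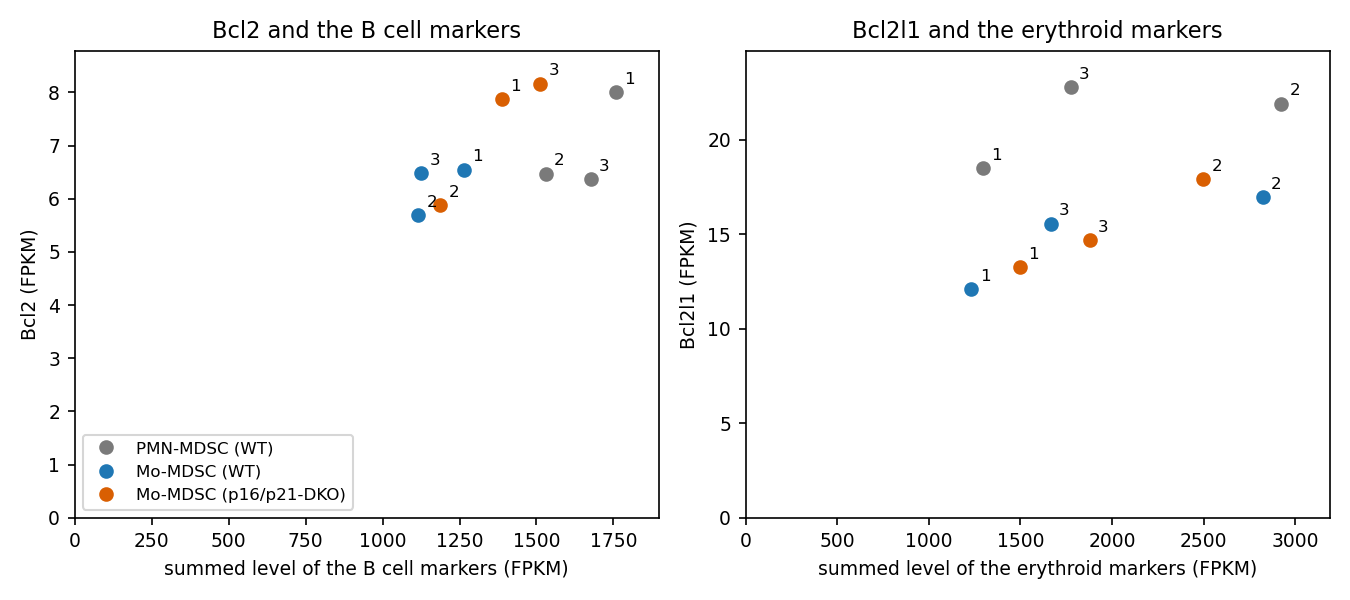
Left, Bcl2 in FPKM against the summed level of the B cell markers in FPKM, and right, Bcl2l1 in FPKM against the summed level of the erythroid markers in FPKM, 1 point per sample with its replicate number, coloured by group. Within both Mo-MDSC groups the replicates have the same order on both axes in each panel, and the PMN-MDSC samples do not.

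Mcl1, Bcl2l1 and Bcl2a1b did not pass the test in DKO Mo-MDSCs either, and all 3 overlapped with WT. Mcl1 was at 266, 243 and 240.3 FPKM, with a fold of 0.968 (95% interval 0.809 to 1.16). Bcl2l1 was at 13.3, 17.9 and 14.7 FPKM, with a fold of 1.03 (95% interval 0.798 to 1.33). Bcl2a1b was at 32.8, 31.3 and 26.0 FPKM, with a fold of 0.906 (95% interval 0.767 to 1.07). Its DKO replicate 1 was within the WT range of 31.6 to 33.8 FPKM, replicate 2 just below it and replicate 3 further below.

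Bcl2a1a and Bcl2a1d were the members with the widest spread, and DKO Mo-MDSCs were where they varied. Bcl2a1a was at 17.3 FPKM in DKO replicate 1, above all WT samples, and at 8.98 and 7.38 FPKM in replicates 2 and 3, below all of them. Bcl2a1d was at 5.64, 2.87 and 4.41 FPKM, lowest in replicate 2. The SD on the log2 scale was 0.64 for Bcl2a1a and 0.48 for Bcl2a1d in DKO Mo-MDSCs, against 0.19 and 0.11 in WT Mo-MDSCs. The sum of the 3 copies was 55.8, 43.1 and 37.8 FPKM, with an SD of 0.28 on the log2 scale and a fold of 0.911 against WT (95% interval 0.725 to 1.15). The interval of Bcl2a1a alone, 0.615 to 1.56, was the widest of all members as a ratio of its ends, and that of Bcl2a1d was 0.514 to 1.07.

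The pore-forming and BH3-only members did not pass the test. Bax was at 80.4, 90.8 and 74.7 FPKM in DKO Mo-MDSCs (fold 1.05, 95% interval 0.906 to 1.22) and Bak1 at 42.2, 59.6 and 51.5 FPKM (fold 0.941, 95% interval 0.760 to 1.17). Bid was at 33.0, 34.7 and 34.3 FPKM (fold 0.927, 95% interval 0.786 to 1.09) and Bcl2l11 at 13.3, 18.0 and 16.4 FPKM (fold 1.03, 95% interval 0.844 to 1.26). All 4 overlapped with WT. Bak1 and Bcl2l11 had their lowest DKO value in replicate 1 and their highest in replicate 2. The summed pro-survival level was 2.80, 2.06 and 2.39 times the summed level of Bax and Bak1, overlapping with WT Mo-MDSCs, and Mcl1 held 78.6% ± 1.15 (SD, n = 3) of the pro-survival sum. Bcl2 held 2.30% ± 0.407 of it, beside 1.90% ± 0.183 in WT (exact permutation p = 0.2).

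The genes that act around the family gave the setting for the 10 members. A list of 53 other apoptosis genes was measured, of which 44 passed the filter in the first comparison and 45 in the second. From PMN-MDSCs to WT Mo-MDSCs, 12 were called higher, 8 lower and 24 not, with a median log2 difference of 0.06. Of all genes tested 18.5% were called higher and 20.6% lower, so the share called lower was close to that of all genes. The 10 called with the largest differences were spread over several roles. Naip6 (log2 difference 2.27), Naip5 (1.76) and Naip2 (0.54), NLR proteins that sense bacterial flagellin and secretion systems and carry the BIR domains of inhibitors of apoptosis, rose. Naip6 was at 3.07, 3.36 and 2.97 FPKM in PMN-MDSCs and at 15.8, 14.9 and 15.6 FPKM in WT Mo-MDSCs. The Naip genes are close copies of each other, and their single values may be uncertain as those of the Bcl2a1 genes are. How much sequence the Naip genes share was not computed. Fas (-1.78) and Tnfrsf1a (-1.06), receptors of death ligands, fell. Fas was at 33.1, 30.5 and 38.3 FPKM in PMN-MDSCs and at 9.78, 9.53 and 9.99 FPKM in WT Mo-MDSCs.

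Among the remaining BCL2 relatives, Bnip3 (-1.85), a mitochondrial protein induced by low oxygen, fell, and Bmf (0.99), a BH3-only protein that responds to loss of attachment, and Bcl2l2 (0.63), which encodes the pro-survival protein BCL-W, rose. Bcl2l2 was at 3.26, 3.58 and 3.96 FPKM in PMN-MDSCs and at 5.05, 5.57 and 6.24 FPKM in WT Mo-MDSCs, so the 1 pro-survival relative that passed the filter moved against the 5 pro-survival members called. The protease Htra2 (0.61), which is released from mitochondria, and the executioner caspase Casp6 (0.60) rose, which completes the 10. The counts by list are small and stand beside 18.5% of all genes tested called higher and 20.6% lower. Of the apoptosome and caspase genes 4 of 12 were called higher and 2 lower. Of the inhibitors of apoptosis 4 of 8 were called higher, with the close copies Naip2, Naip5 and Naip6 among them, and 0 lower. Of the death receptor genes 0 of 7 were called higher and 2 lower. Of the mitochondrial partners and regulators of MCL1 turnover, 1 of 7 was called higher and 2 lower, of the BH3-only and effector genes 1 of 6 higher and 2 lower, and of the BCL2-like genes 1 of 3 higher. Bcl2l10 was listed at 0 in every sample, and Bcl2a1c, the fourth gene of the A1 family, reached 2.42 FPKM in 1 PMN-MDSC sample and at most 0.363 in all others.

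**Figure D5:**
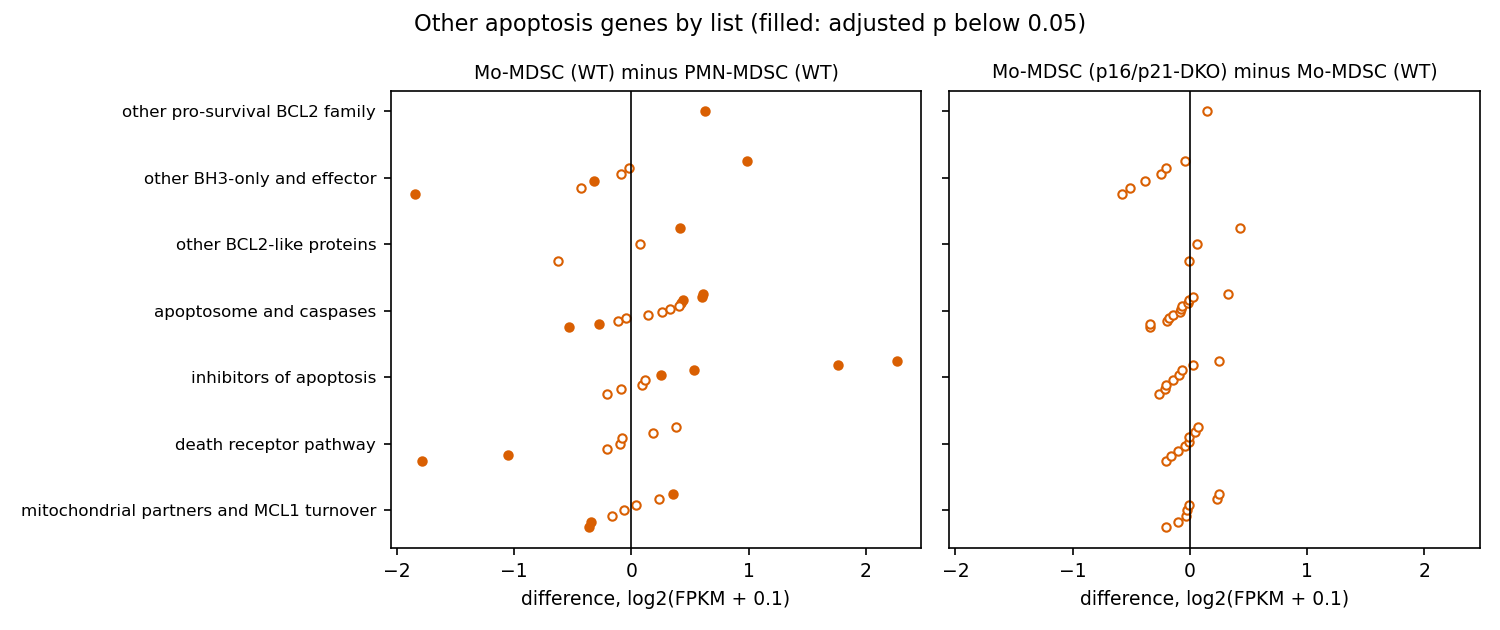
Fitted difference on the log2(FPKM + 0.1) scale of each other apoptosis gene that passed the filter, by list, for both comparisons; filled points have an adjusted p below 0.05. The left panel, Mo-MDSC (WT) minus PMN-MDSC (WT), has 20 filled points from -1.85 (Bnip3) to 2.27 (Naip6), and the right panel, Mo-MDSC (p16/p21-DKO) minus Mo-MDSC (WT), has none.

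Between DKO and WT Mo-MDSCs none of the 45 was called by limma. An unadjusted p below 0.05 was found for 11 of them, and the groups of 13 did not overlap, beside 15.0% and 20.8% of all genes tested. Their median log2 difference was -0.07. Under the study's fold threshold, with the inverse fold added, 2 passed, both lower, and they encode BH3-only proteins, Bbc3 (PUMA), a p53 target, and Bad; they are named because only 2 passed, after their values were seen. Bbc3 was at 8.40, 7.48 and 9.55 FPKM in WT and at 5.77, 6.73 and 4.57 FPKM in DKO Mo-MDSCs (log2 difference -0.58, adjusted p = 0.202). Bad was at 15.1, 13.2 and 16.01 FPKM in WT and at 10.5, 12.2 and 8.63 FPKM in DKO Mo-MDSCs (log2 difference -0.51, adjusted p = 0.201). For both, the DKO samples all lay under the WT samples, yet neither passed the adjusted test. In the same samples the PMN-MDSC marker sum, mostly S100a8 and S100a9, was 23970, 13640 and 48080 FPKM in WT and 10570, 13080 and 5188 FPKM in DKO Mo-MDSCs. The markers of that list did not move as one: S100a8, S100a9 and Retnlg were lower in DKO without overlap, Cxcr2 and Csf3r overlapped, and Mmp8 was higher without overlap, at 42.3, 50.2 and 55.2 FPKM in WT and 75.96, 112 and 71.7 FPKM in DKO. None of the 6 was called, and their part in these values was not tested.

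The genes whose pattern over the 9 samples was most like that of Bcl2 and of Bcl2a1b were looked for among 11520 genes with a mean of at least 1 FPKM, by Pearson's r on the log2 scale. For Bcl2 they were H2-Ob (r = 0.954), Gdap10 (0.931) and Rfx7 (0.924). H2-Ob, a chain of a class II-like molecule known from B cells, had means of 85.4 FPKM in PMN-MDSCs, 74.9 in WT and 91.7 in DKO Mo-MDSCs, the same order of groups by size as for Bcl2, which averaged 6.94, 6.24 and 7.30 FPKM. For Bcl2a1b they were Hgsnat (r = 0.987) and Psenen (0.984), which encode a lysosomal enzyme and a subunit of gamma-secretase, and Atp6v0e (0.981), a subunit of the proton pump of lysosomes. Hgsnat had means of 73.5, 45.1 and 40.7 FPKM, and Bcl2a1b of 42.5, 33.0 and 30.04 FPKM. These r are the highest of all genes searched and describe 9 samples that fall into 3 groups.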

How the data were processed

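The authors prepared stranded mRNA libraries, sequenced single-end reads, mapped them to mm10 with TopHat2 2.0.13, Bowtie2 2.2.3 and SAMtools 0.1.19, and deposited FPKM values from Cuffnorm 2.2.1 for each sample. The gene annotation, Cuffnorm's scaling and the read counts are not given in the sources used here, so depth in reads is unknown. Relative depth came from genes under 0.5 FPKM (tolerance 0.006, log2). Their ratios between a pair of samples pile up where each holds a single read. The result equals depth only where the samples were scaled by library size alone.

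Groups and replicate numbers were taken from the labels. The members and gene lists were chosen with earlier results of these data known. Named were the 10 members, other apoptosis genes called in DKO against WT Mo-MDSCs or among the 10 largest called in WT Mo-MDSCs against PMN-MDSCs, the 3 genes most like Bcl2 and Bcl2a1b, the deleted genes and the markers. Values were used as deposited, as log2(FPKM + 0.1). A fold change on this scale understates the change of low genes. limma 3.58.1 was fitted to all genes that reached 1 FPKM in 3 or more of a comparison's 6 samples (lmFit, eBayes with a trend, R 4.3.3), without covariates, and p-values were adjusted over all genes tested by Benjamini-Hochberg. Exact permutation tests were two-sided and shuffled all 6 samples of a comparison without regard to replicate number. The fitting was tested on simulated data. Python 3.11.15 with pandas 2.3.3, numpy 2.4.6, scipy 1.17.1 and matplotlib 3.10.9 was used for the rest.

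Replicate numbers are shared by the groups, and the library numbers place replicate 1 of each group apart from, and before, replicates 2 and 3. Between WT Mo-MDSCs and PMN-MDSCs the deviations of same-numbered samples from their group means had correlations of 0.179 to 0.384 across genes. Those of differently numbered samples were -0.403 to 0.0621, so the numbers were taken to pair the samples, from the data and not from the labels. The main fits and the permutation tests did not use this pairing, which entered only as the replicate block among the alternatives. Gene positions and sequences came from GENCODE M21 (GRCm38), with entries for all 10 members.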

Additional observations from a re-analysis of the deposited data

How the results depend on the processing

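Alternatives were pseudocounts of 1 and 0.01, no filter, at least 1 FPKM in all 6 samples, all 9 samples in 1 fit, no variance moderation, quantile normalization, median scaling, a replicate block, replicates 2 and 3 only, each sample left out, and the study's thresholds, which were applied here in both directions although the study states only 1 for each comparison. In WT Mo-MDSCs against PMN-MDSCs the 7 members called became 3 without variance moderation and 1 with the study's thresholds, and ranged from 4 to 6 with 1 sample left out. The 20 other apoptosis genes called became 13 with replicates 2 and 3 only and 5 with the study's thresholds, and ranged from 16 to 20 with 1 sample left out. With the replicate block 8 members and 29 other genes were called; Bax was the member gained, and no other member's call changed. Bak1 lost its call without PMN-MDSC replicate 1 (adjusted p = 0.0815) or 2 (0.0800) and without WT Mo-MDSC replicate 1 (0.0601), 2 (0.0607) or 3 (0.104). Bcl2l1 lost its call without PMN-MDSC replicate 2 (0.0781) or 3 (0.0967) and without WT Mo-MDSC replicate 1 (0.0649) or 3 (0.0594). Bcl2a1d lost its call without PMN-MDSC replicate 2 (0.124) or 3 (0.0949) and without WT Mo-MDSC replicate 1 (0.0715), 2 (0.0847) or 3 (0.143). These p-values are from limma, and the cause was not tested. Bcl2a1a lost its call in 2 alternatives, and every member kept its direction in all 16, which do not include the study's thresholds.

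In DKO against WT Mo-MDSCs 0 members were called under every alternative, and 0 other apoptosis genes except for the 2 under the study's thresholds. With the replicate block the counts were also 0 and 0. The log2 difference of Bcl2 ranged from 0.13 to 0.36 over the 16 alternatives, while Mcl1, Bcl2l1 and Bcl2a1a changed sign in 3 of them, Bak1 and Bcl2l11 in 2 and Bax in 1. Same-numbered samples had correlations of 0.0591 to 0.424 there (mean 0.259), and differently numbered samples -0.393 to 0.138 (mean -0.128). The same-numbered samples were thus more alike on average. The 2 ranges overlapped, unlike those of the first comparison, so the correlations alone do not settle whether the numbers pair the DKO and WT samples. Quantile normalization moved the median of all genes to 0.06 in the first comparison and 0.01 in the second, and 54.9% of all calls in the first were higher, against 47.2% as deposited. Depth in reads is unknown, and 3 samples a group limit the precision.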
